A study of Rattus norvegicus with 12 samples.

Results

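The miR-200 family comprises the microRNAs (miRNAs) miR-200a, miR-200b, miR-200c, miR-141 and miR-429. Its members were taken by name, as every listed arm of these 5 hairpins, which gave 9 of the 641 mature miRNAs in the table. These are both arms of miR-200a, miR-200b, miR-200c and miR-141 and the single entry for miR-429; the main strands are listed as rno-miR-200a-3p, rno-miR-200b-3p, rno-miR-200c-3p, rno-miR-141-3p and rno-miR-429, and the rat prefix rno- is left out below. They were followed through 12 small RNA libraries made from aorta of female spontaneously hypertensive rats (SHR), a strain bred for inherited hypertension. A control group of 6 libraries came from rats given saline, and the other 6 carried the treatment label EWH. The label is not spelled out, and the series title names peptides derived from egg white and blood pressure. Age, dose and duration are not stated in the labels. The comparison implied by the design is EWH against saline. The labels do not state whether each sample is a separate animal, so p-values here reflect the spread between samples, part or all of which may be technical.

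MiRNAs are short RNAs that lower the output of messenger RNAs to which they pair, chiefly through their seed, bases 2 to 8 from the 5′ end. The miR-200 family is characteristic of epithelial cells, where it holds down the transcription factors Zeb1 and Zeb2 and thereby keeps up E-cadherin and the epithelial state. Loss of the family accompanies the change from epithelial to mesenchymal form, and mesenchymal cells such as the smooth muscle that dominates the aortic wall express little of it. By their seeds the guide strands fall into a group of miR-200b, miR-200c and miR-429 and a group of miR-200a and miR-141.

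Mature sequences were matched by name in RefSeq's table for the assembly GRCr8 for 6 of the 9 members, and miR-200a-3p, miR-200b-3p and miR-429 are only named. The guide strands miR-200c-3p and miR-141-3p are shown because they represent the 2 seed groups, and the passenger strands miR-200a-5p and miR-200b-5p because they come from the hairpins of the most abundant members. Sequences run 5′ to 3′ with the seed in capitals.
miR-200c-3p: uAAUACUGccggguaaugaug
miR-141-3p: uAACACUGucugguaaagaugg
miR-200a-5p: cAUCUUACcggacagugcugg
miR-200b-5p: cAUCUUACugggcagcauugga
From miR-141-3p to miR-200c-3p, counting from the 5′ end of miR-141-3p, the seeds differed by the single substitution C4U, and 17 of 21 compared positions were identical. The passenger strands miR-200a-5p and miR-200b-5p had the same seed and 16 of 21 identical positions. Among 693 mature rat sequences in the RefSeq table, seed AAUACUG was found in 1 (miR-200c-3p), AACACUG in 1 (miR-141-3p) and AUCUUAC in 2 (the passenger strands above). MiR-200a-3p, miR-200b-3p and miR-429 had no entry among those sequences. The counts therefore leave out these strands and do not show a seed to be unique. How the authors' counting split reads between such similar sequences is not stated, so levels of close relatives may share reads.

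The hairpins lie in 2 clusters in GRCr8. Those of miR-200b, miR-200a and miR-429 are neighbours on the minus strand of chromosome 5, within the spans of the gene Ttll10 and of a long non-coding RNA gene. Those of miR-200c and miR-141 are neighbours on the minus strand of chromosome 4, between Phb2 and Ptpn6. RefSeq also places a hairpin on the opposite strand in each cluster, miR-3548 across miR-200a and miR-3575 across miR-200c. The table listed miR-3548 with 3 reads in all, 1 in each of controls 4, 5 and 6.

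The deposited values are in reads-per-million (rpm) units, and the totals behind them were 23887799 to 24772944 reads per library. A single read was worth 0.0404 to 0.0419 rpm. For an entry of 0 the limit was set at 3 reads, or 0.121 to 0.126 rpm, which covers counting error only. The libraries carried the miRNAs of an arterial wall in bulk. MiR-143-3p, the leading miRNA of contractile smooth muscle, read 330147 to 426996 rpm, miR-145-5p from the same cluster 755 to 1551 rpm, and miR-126a-3p of endothelium 3256 to 12218 rpm. In bulk tissue, fewer cells of a type and less RNA per cell cannot be told apart.

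Against this background the family was a minor component, and 3 control libraries stood far above the other 9. The 9 members together summed to 9.26 to 25.2 rpm in controls 1, 2 and 3 and all 6 EWH libraries, and to 87.7, 242 and 643 rpm in controls 4, 5 and 6. Control 6 lay 46.5-fold above the median of those 9 libraries. The read totals of controls 4, 5 and 6 (24595877, 24208593 and 24470815) lay between the lowest and the highest of the other 9. Results that rest on controls 4, 5 and 6 are therefore given with and without them.

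MiR-200b-3p, the most abundant member, had a lowest value of 3.58, a median of 33.6 and a highest value of 501 rpm in control. In EWH its lowest, median and highest values were 3.54, 6.37 and 10.2 rpm. Controls 4, 5 and 6 read 58.6, 176 and 501 rpm, above each EWH library, while controls 1, 2 and 3 at 8.69, 4.47 and 3.58 rpm lay among them. At 12264 reads the control 6 value had a 95% exact binomial interval of 492 to 510 rpm, so counting error was small beside the spread between libraries. Control 6 ranked miR-200b-3p as its 52nd most abundant miRNA, and control 3 as its 224th. Its standard deviation (SD) over controls on the log2(rpm + 1) scale, 2.83, was the largest of the 303 miRNAs tested, whose median was 0.34. In EWH the SD was 0.54, rank 68.

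MiR-200a-3p, from the same cluster and the other seed group, followed the same libraries over a smaller range. Control values had a lowest of 3.09, a median of 13.6 and a highest of 94.7 rpm, and EWH values a lowest of 3.56, a median of 4.18 and a highest of 8.81 rpm. Controls 4, 5 and 6 were again highest, at 18.5, 46.6 and 94.7 rpm, and the other 3 controls overlapped EWH.

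MiR-200c-3p, from the other cluster, had a lowest value of 0.946, a median of 3.09 and a highest of 24.7 rpm in control. In EWH these were 0.605, 1.16 and 2.35 rpm. Controls 4, 5 and 6 read 5.08, 9.96 and 24.7 rpm, more than any of the other 9 libraries. Its partner miR-141-3p read 1.67, 4.05 and 11.9 rpm in controls 4, 5 and 6. In the remaining 9 libraries miR-141-3p had 0.0415 to 0.334 rpm, or 1 to 8 reads, so that its level there is known only to within a few reads.

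MiR-429 did not share the rise in controls 4, 5 and 6, although its hairpin neighbours that of miR-200a and it belongs to the seed group of miR-200b. It read 3.09, 1.86 and 3.15 rpm in controls 4, 5 and 6, inside the 1.17 to 3.42 rpm of the other 9 libraries. The highest of all 12 values was in EWH 4. Its 45 reads in control 5 gave a 95% exact binomial interval of 1.36 to 2.49 rpm, inside that same range. The SD of miR-429 on the log2 scale was 0.38 in control (rank 133 of 303) and 0.42 in EWH (rank 85). In rank order it was like miR-200a-3p, with Spearman's rho 0.79 over 12 libraries and 0.92 over the other 9. For miR-200b-3p these were 0.63 and 0.62, for miR-200c-3p 0.58 and 0.52, and for miR-141-3p 0.23 and -0.02. Reads of miR-200a-3p per read of miR-429 were 2.53 to 3.52 in the other 9 libraries and 5.97 to 30.1 in controls 4, 5 and 6.

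**Figure D1:**
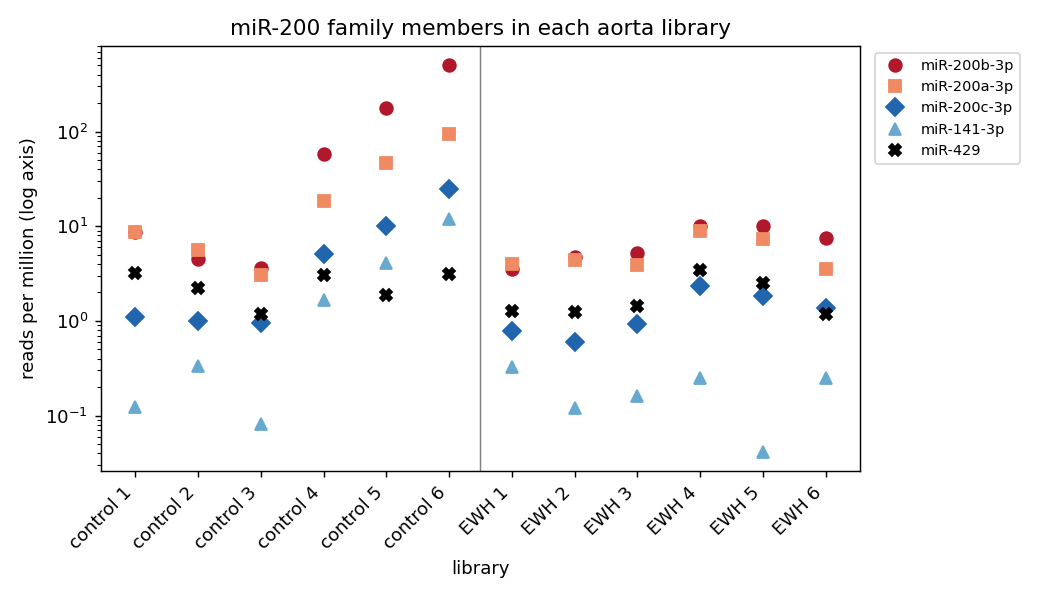
Reads-per-million values (log axis) of the 5 main strands of the family in each of the 12 libraries, with 1 point per member and library and a line between the groups. MiR-200b-3p, miR-200a-3p, miR-200c-3p and miR-141-3p are highest in controls 4, 5 and 6, while miR-429 stays between 1.17 and 3.42 rpm in all 12 libraries.

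The passenger strands were rare and together held 0.570% to 4.0% of the family's reads in a library. MiR-200b-5p had 18, 49 and 137 reads in controls 4, 5 and 6 and 1 to 6 reads in the others. MiR-200a-5p had 24 and 30 reads in controls 5 and 6 and at most 4 elsewhere, control 4 included with 3. MiR-141-5p had 0 to 5 reads in every library, also in control 6, where the other arm miR-141-3p had 290. MiR-200c-5p had 1 read, in control 5, and a listed 0 in the other 11 libraries.

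The make-up of the family differed between controls 4, 5 and 6 and the 9 lower libraries. In the 9 lower libraries there were 0.799 to 2.11 reads of miR-200b-3p per read of miR-200a-3p, with a median of 1.15. In controls 4, 5 and 6 this ratio was 3.17, 3.77 and 5.29. MiR-200b-3p made up 66.8%, 72.8% and 78.0% of the family's reads in these 3 libraries, against 32.3% to 52.8% in the others, and miR-429 made up 3.52%, 0.769% and 0.490% against 8.26% to 16.0%. For each read of miR-429 there were 2.02 to 6.39 reads of miR-200b-3p in the 9 lower libraries and 19.0, 94.6 and 159 in controls 4, 5 and 6. By contrast, the ratio of miR-200a-3p to miR-200c-3p, members of different clusters and different seed groups, was 3.63 to 4.68 in controls 4, 5 and 6 and 2.58 to 8.0 in the rest. The share of the family from the cluster of miR-200b, miR-200a and miR-429 also stayed within a narrow range, 87.3% to 94.3% over the 12 libraries. The seed group of miR-200b, miR-200c and miR-429 outnumbered that of miR-200a and miR-141 by 1.30 to 2.64 in the 9 lower libraries and by 3.32 to 4.96 in controls 4, 5 and 6.

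**Figure D2:**
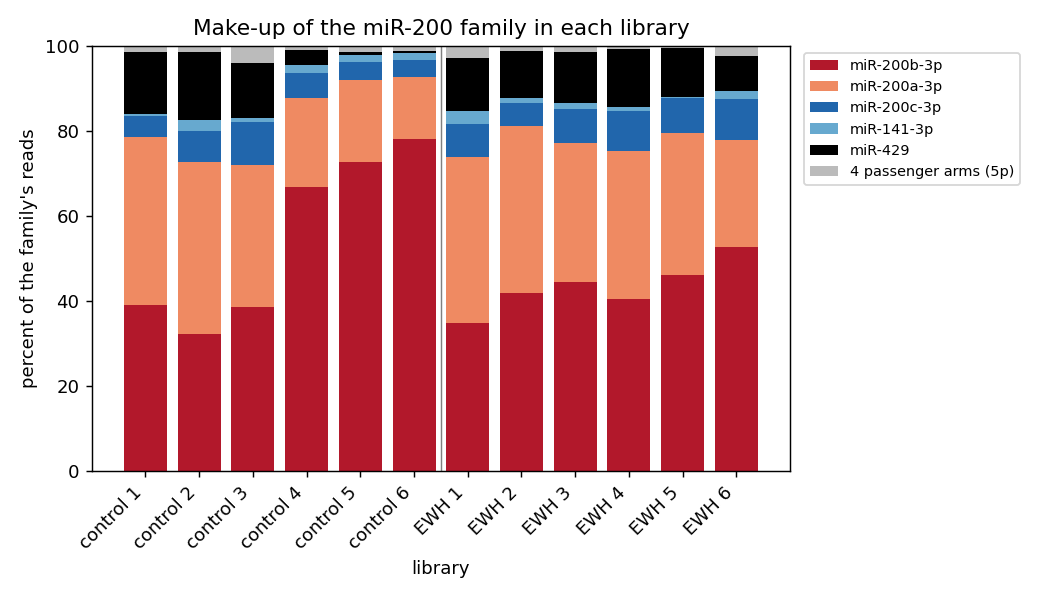
Percent of the family's reads held by each member in each library, as stacked bars that sum to 100%. The share of miR-200b-3p is 66.8% to 78.0% in controls 4, 5 and 6 and at most 52.8% elsewhere, and the share of miR-429 is lowest in control 6, at 0.490%.

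Ordered by mean level over the 12 libraries, miR-200b-3p (66.1 rpm) came first, then miR-200a-3p (17.4 rpm), miR-200c-3p (4.22 rpm), miR-429 (2.14 rpm) and miR-141-3p (1.60 rpm). Small RNA cloning favours some sequences over others, so an order between miRNAs is one of read yields. Neighbours in this order were compared within libraries on the log2(rpm + 1) scale by a two-sided exact permutation test over all sign flips, with Benjamini-Hochberg adjustment over the 4 pairs. MiR-200a-3p exceeded miR-200c-3p in 12 of 12 libraries, by 1.61 ± 0.38 (SD, n = 12; exact adjusted p = 0.00195), and did so in every alternative tried. MiR-200b-3p exceeded miR-200a-3p in 9 of 12, by 0.63 ± 0.87 (SD, n = 12; exact adjusted p = 0.0332). That call was lost without EWH 3, 5 or 6. It was also lost without controls 5 and 6 together (difference 0.33, exact permutation adjusted p = 0.0664). Without controls 4, 5 and 6 the difference was 0.19. Controls 5 and 6 had the highest family sums, so their omission was bound to shrink this difference and is a description only. MiR-200c-3p exceeded miR-429 in only 4 of 12 libraries, and they did not differ beyond their spread, at 0.13 ± 1.09 (SD, n = 12; exact adjusted p = 0.683). Without controls 4, 5 and 6 their order turned, with miR-200c-3p below miR-429 by a mean difference of -0.40. No test is attached to that value, since the family itself singled out the libraries left out. MiR-429 exceeded miR-141-3p in 10 of 12 libraries, by 0.80 ± 1.05 (SD, n = 12; exact adjusted p = 0.0371). This last call was lost when any 1 of controls 1, 2 and 3 or of the EWH libraries was left out, with the difference still at 0.70 to 0.80 (exact permutation adjusted p = 0.0547 to 0.0729), and at a pseudocount of 5, with a difference of 0.21.

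Between the groups, 4 members passed the filter of at least 1 rpm in at least 6 libraries and were tested among 303 miRNAs. These were miR-200a-3p, miR-200b-3p and miR-429, at or above 1 rpm in all 12 libraries, and miR-200c-3p, at that level in 5 control and 3 EWH libraries. The mean of miR-200b-3p was 125 ± 196 rpm among controls against 6.87 ± 2.83 rpm among EWH libraries (SD, n = 6 each), a ratio of means of 18.3. MiR-200a-3p averaged 29.5 ± 35.7 and 5.31 ± 2.19 rpm, and miR-200c-3p 7.13 ± 9.32 and 1.31 ± 0.674 rpm (SD, n = 6 each). MiR-429 averaged 2.45 ± 0.831 and 1.84 ± 0.918 rpm (SD, n = 6 each). For none of the 9 members did the groups separate, a background of 1.65% of the tested miRNAs.

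By limma on log2(rpm + 1) with Benjamini-Hochberg adjustment no member passed a threshold of 0.05, and neither did any other tested miRNA (percent called 0, with 23.1% at an unadjusted p under 0.05). All 4 members had lower means in EWH, as did 60.1% of the tested miRNAs. The median log2 fold change of the 4 was -1.31, beside -0.06 over all 303. The log2 fold change was -2.15 (SE 1.07) for miR-200b-3p, at a limma adjusted p of 0.251. For miR-200a-3p it was -1.49 (SE 0.67) at a limma adjusted p of 0.201, the only member with an unadjusted limma p under 0.05 (0.0464). MiR-200c-3p had -1.14 (SE 0.60) and miR-429 -0.30 (SE 0.22), at limma adjusted p of 0.276 and 0.467. Of the 5 untested members, fitted with no filter on low values, miR-141-3p had -1.11 (SE 0.54) at a limma adjusted p of 0.298 and miR-200b-5p -0.80 (SE 0.38) at 0.287.

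Count models, fitted to whole reads that the rpm steps give back, compare means rather than log levels and gave other calls. EdgeR's quasi-likelihood test called miR-200b-3p at log2 -4.14 (Benjamini-Hochberg adjusted p = 0.0331) and miR-200a-3p at -2.43 (edgeR adjusted p = 0.0460), both lower in EWH. It did not call miR-200c-3p (-2.42, edgeR adjusted p = 0.0643) or miR-429 (-0.41, edgeR adjusted p = 0.431). These were 2 of 4 members, where 13.2% of the 303 miRNAs were called in either direction and 1.98% as lower in EWH. DESeq2 called miR-200b-3p, miR-200a-3p and miR-200c-3p (adjusted p = 0.000433, 0.00315 and 0.00803 by DESeq2) and not miR-429 (0.403), with 20.8% called in either direction and 5.61% as lower.

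With 1 library left out in turn, edgeR kept its calls of miR-200b-3p and miR-200a-3p without control 2 or control 3, where it also called miR-200c-3p (edgeR adjusted p = 0.0432 and 0.0494). It lost both when any of the remaining libraries was omitted. Its adjusted p then ran from 0.0545 to 0.0878 for miR-200b-3p and from 0.0652 to 0.114 for miR-200a-3p. The size of the edgeR estimates moved little over the 12 omissions, at -4.43 to -4.02 for miR-200b-3p and -2.70 to -2.26 for miR-200a-3p, except without control 6. That omission gave -2.88 for miR-200b-3p, -1.64 for miR-200a-3p and -1.49 for miR-200c-3p. Without controls 5 and 6 together, edgeR gave -1.54 for miR-200b-3p (edgeR adjusted p = 0.236) and -0.80 for miR-200a-3p (edgeR adjusted p = 0.328), and limma gave -0.56 and -0.49. DESeq2 then gave no adjusted p for miR-200b-3p (log2 -1.57) and did not call miR-200a-3p or miR-200c-3p (DESeq2 adjusted p = 0.261 and 0.439). With control 4 left out too, the mean of the remaining 3 controls was 5.58 ± 2.73 rpm for miR-200b-3p (SD, n = 3), below the EWH mean. The direction then turned for miR-200b-3p, at 0.25 (SE 0.36) by limma, 0.33 by edgeR and 0.32 by DESeq2, and for miR-200c-3p, at 0.15 (SE 0.24), 0.37 and 0.37. It did not turn for miR-200a-3p (-0.09 by limma and edgeR, -0.10 by DESeq2) or for miR-429 (-0.18, -0.24 and -0.25), and no member was called by any of the 3 tools. The family itself singled out controls 4, 5 and 6. Leaving out all of them, or controls 5 and 6 alone, was bound to shrink the differences of members high in them. These values, and the adjusted p without controls 5 and 6, are therefore a description only. The difference in response between miR-429 and the other members was not tested.

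**Figure D3:**
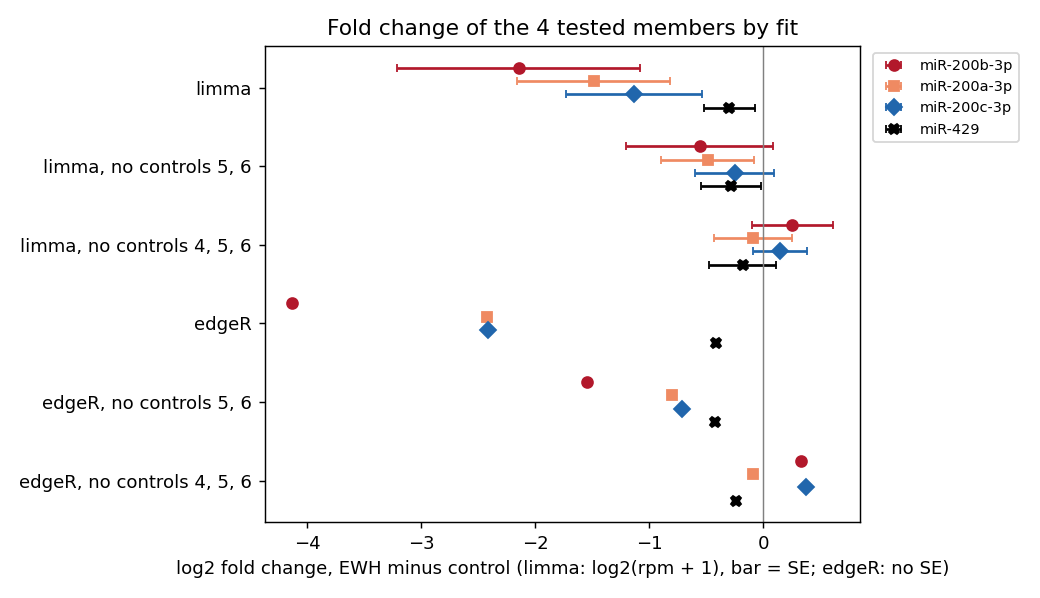
Log2 fold change (EWH minus control) of the 4 tested members under limma and edgeR, each with all libraries, without controls 5 and 6 and without controls 4, 5 and 6. Points are estimates and bars the SE of limma. The value of miR-200b-3p moves from -2.15 to 0.25 by limma and from -4.14 to 0.33 by edgeR as these controls are left out, while that of miR-429 stays between -0.43 and -0.18.

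Other miRNAs known from epithelia did not follow the family as a whole. The list held 10 rows, from miR-203a and miR-203b of keratinising epithelium, miR-205 of basal epithelium, miR-375 of endocrine and gut epithelium and the sensory-epithelium cluster of miR-183, miR-96 and miR-182. Of its 8 tested members 3 had higher and 5 lower means in EWH. Over all tested miRNAs 60.1% had lower means. The list's median log2 fold change was -0.21. Limma and edgeR called none. DESeq2 called 1, miR-375-3p, higher in EWH (DESeq2 adjusted p = 0.0155), where it called 20.8% of all tested in either direction. The list's summed level was 74.4 to 258 rpm in controls 4, 5 and 6 and 68.8 to 822 rpm in the other 9 libraries. Its Spearman's rho against the summed family was 0.01 over 12 libraries. This sum mostly follows miR-203a-3p, which averaged 179 rpm of the list's 290 rpm in control. MiR-203a-3p was highest in control 1, at 572 rpm, and read 33.6, 155 and 67.5 rpm in controls 4, 5 and 6. MiR-205 was highest in EWH 4, at 29.2 rpm, and controls 4, 5 and 6 had 7.60 to 11.6 rpm. MiR-375-3p was also highest in EWH 4, at 206 rpm, followed by EWH 3 at 62.0 rpm, while the remaining EWH libraries had 2.26 to 7.23 rpm. It read 6.49 to 10.8 rpm in controls 4, 5 and 6, above the 0.162 to 3.93 rpm of controls 1, 2 and 3.

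Within that list miR-96-5p was most like the summed family in rank order (Spearman's rho 0.70 over 12 libraries). MiR-182 (0.54), miR-375-3p (0.51) and miR-183-5p (0.41) came next. MiR-96-5p read 1.87, 5.29 and 17.04 rpm in controls 4, 5 and 6 and at most 1.75 rpm elsewhere. MiR-182 read 7.20, 21.0 and 54.1 rpm against 2.27 to 13.5 rpm in the other 9 libraries, and miR-183-5p 3.82, 11.1 and 30.9 rpm against 2.11 to 14.6 rpm. For both of these control 6 was highest and control 4 lay within the other 9 libraries, and control 5 lay above those 9 for miR-182 only.

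Outside the family and by a fixed rule, the 8 tested miRNAs whose rank order over the 12 libraries was most like that of the summed family were miR-19b-3p, miR-15b-3p, miR-93-5p, miR-17-5p, miR-92a-3p, miR-28-5p, miR-25-3p and miR-24-3p (Spearman's rho 0.73 to 0.85, n = 12). The libraries share their depth and preparation, and these values describe likeness only. Over the 9 libraries without controls 4, 5 and 6 the same 8 had rho of 0.45 to 0.73. MiR-19b-3p, miR-17-5p and miR-92a-3p come from the miR-17-92 cluster, known from proliferating cells, and miR-93-5p and miR-25-3p from its relative miR-106b-25. MiR-17-5p read 8.50, 18.6 and 41.4 rpm in controls 4, 5 and 6 and at most 7.98 rpm in the others. MiR-19b-3p read 3.46, 7.15 and 10.3 rpm against at most 3.37 rpm. Not all 8 stood apart in these controls. MiR-28-5p read 105 to 114 rpm in them and 92.1 to 119 rpm in the others. Control 4 lay inside the range of the other 9 libraries for miR-92a-3p (5.81 rpm, others 3.23 to 8.94 rpm) and miR-25-3p (370 rpm, others 292 to 453 rpm). MiR-17-5p spanned 2.95 to 41.4 rpm. That was narrower than the 3.54 to 501 rpm of miR-200b-3p and wider than the 1.17 to 3.42 rpm of miR-429. Least alike were miR-99a-5p, miR-206-3p and miR-204-5p (rho -0.55, -0.52 and -0.46). Without controls 4, 5 and 6 their rho was -0.28, -0.67 and 0.23.

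Controls 4, 5 and 6 were the 3 highest libraries for 9 of the 303 tested miRNAs (2.97%), a description only, since the family singled them out. Beside miR-200a-3p, miR-200b-3p and miR-200c-3p these were miR-17-5p, miR-19a-3p, miR-19b-3p, miR-20a-5p, miR-93-5p and miR-96-5p. Within the list of miR-17-92 and related clusters, 2 of 11 tested members had higher and 9 lower means in EWH (median log2 fold change -0.56), where 60.1% of all tested miRNAs had lower means. EdgeR called 2 of the 11, miR-17-5p and miR-20a-5p, both lower (1.98% of all tested called lower). DESeq2 called 7 (20.8% of all tested called in either direction, 5.61% as lower). Among these 7 was miR-363-3p (DESeq2 adjusted p = 0.0468), which was higher in EWH, with means of 5.29 rpm against 2.04 rpm in control. The list summed to 496, 597 and 885 rpm in controls 4, 5 and 6 and to 362 to 580 rpm in the other 9 libraries, so control 4 did not stand apart in it.

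**Figure D4:**
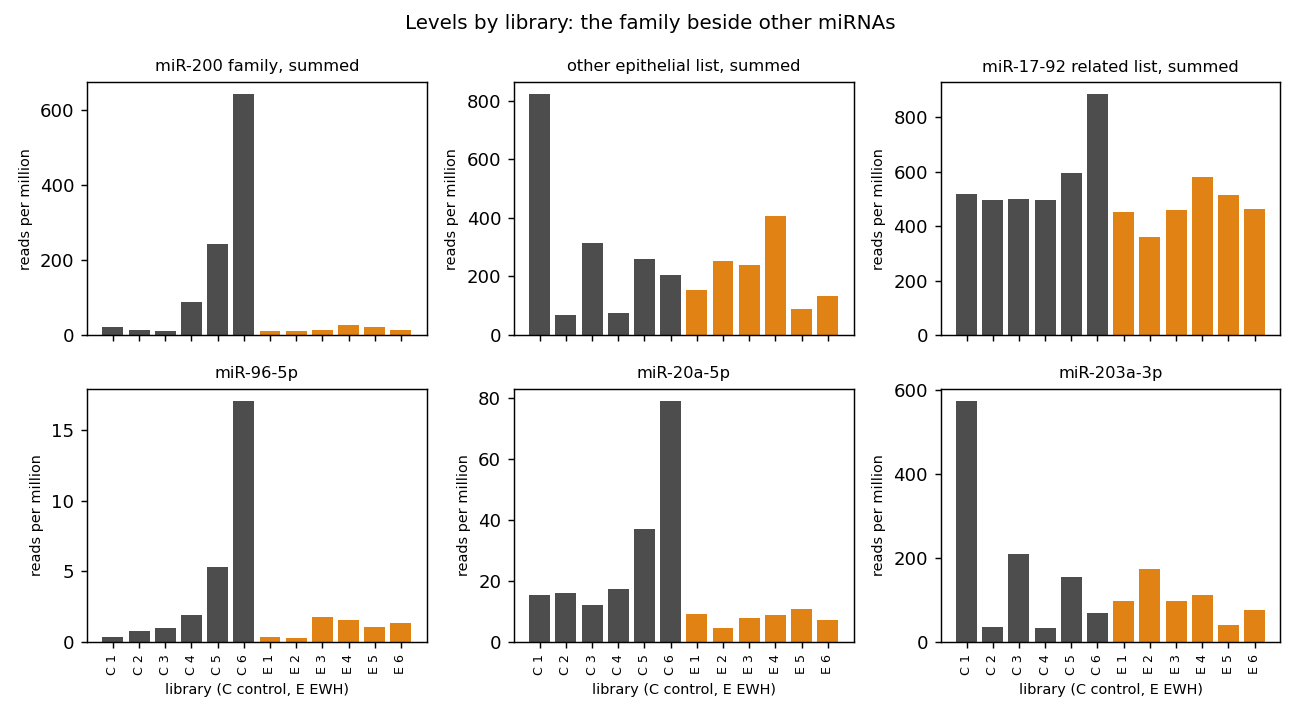
Reads-per-million values (linear axes from 0) in each library for the summed family, 2 other summed lists and 3 single miRNAs, with controls in grey and EWH in orange. The family, miR-96-5p and miR-20a-5p are highest in controls 5 and 6, whereas miR-203a-3p and the other epithelial list are highest in control 1.

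Markers of other cell types were read in the same libraries. Liver and gut miRNAs summed to 347 to 1466 rpm in controls 4, 5 and 6 and 191 to 990 rpm in the rest. Of these, the gut and kidney miRNA miR-192-5p read 89.4, 155 and 308 rpm in controls 4, 5 and 6 and 72.0 to 117 rpm in the others, and its cluster partner miR-194-5p 65.6, 115 and 151 rpm against 54.1 to 88.7 rpm. The hepatocyte miRNA miR-122-5p was highest in control 6, at 1006 rpm, but read 75.1 rpm in control 5. MiR-215, of the same list, read 1.18 to 1.40 rpm in controls 4, 5 and 6, inside the 0.525 to 1.88 rpm of the others. Leukocyte miRNAs summed to 92.7 to 162 rpm in controls 4, 5 and 6 and 108 to 238 rpm elsewhere, and erythroid miRNAs to 107 to 364 and 80.4 to 385 rpm. Those of skeletal and cardiac muscle summed to 3000 to 3535 and 2448 to 5439 rpm, and neural miRNAs to 82.6 to 141.3 and 124 to 1140 rpm. The summed level of the neural list was 143 ± 48.2 rpm over the 6 control libraries and 535 ± 394 rpm over the 6 EWH libraries (SD), and 5 EWH libraries lay above the highest control. Over the 6 tested neural miRNAs the median log2 fold change was 1.48. Limma called none of the 6. EdgeR called 3, all higher in EWH, where it called 13.2% of all tested miRNAs in either direction, most of them as higher. DESeq2 called 5 of the 6, against 20.8% of all tested in either direction. Smooth muscle miRNAs lay at 392183 to 421241 rpm in those controls, inside the 331968 to 428677 rpm of the rest. No member of these lists was at 0 in every library, and their part in the family's levels was not tested.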

How the data were processed

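Small RNA was sequenced from 12 aorta samples of female SHR rats, 6 saline controls and 6 labelled EWH. Per the labels' protocols, Trizol RNA was ligated to adaptors at both ends, amplified by RT-PCR and cut to inserts of 15 to 35 nt. The authors deposited 1 table of 641 mature miRNAs whose values are on the reads-per-million (rpm) scale. Its title says TPM, yet the smallest step within a library was the same for each miRNA, with no sign of a length correction. The build was rn6, per the submitters' processing notes; the aligner, counter and annotation were not stated there. Dividing each column by its smallest step gave whole reads for 100% of values (tolerance 0.01 read), on which edgeR called 40 and DESeq2 63 of 303 miRNAs. Columns were mapped through the samples' descriptions and groups through the titles.

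The 303 miRNAs that reached 1 rpm in 6 or more libraries were compared as log2(rpm + 1) with limma 3.58.1 (trend, two-sided; R 4.3.3), Benjamini-Hochberg adjusted over all of them at a threshold of 0.05. A fold change on this scale understates the change of low miRNAs. Alternatives were edgeR 4.0.16, DESeq2 1.42.0, other filters, pseudocounts of 0.1 and 5, other scalings and variance models, a replicate block and libraries left out; the omission of controls 4, 5 and 6 together, edgeR with each library left out and DESeq2 with libraries left out were chosen after seeing the data. Controls 5 and 6, also left out together, had the highest sums of the family, and that omission is a description only. Fits were also run on simulated counts drawn with the same dispersion for every miRNA and in both groups. That check does not cover a spread that differs between groups, such as that of miR-200b-3p. Members and lists were chosen with earlier results of these data known. Named were all members, the fixed lists, the smooth muscle and endothelial markers, and the 8 most and 3 least similar miRNAs by Spearman's rho; some list members are given only by their sums. RefSeq tables (GRCr8, another assembly than the data) gave names, order and sequences only. Figures were drawn with Python 3.11.15 and matplotlib 3.10.9.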

Additional observations from a re-analysis of the deposited data

Results flagged for a closer look

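Within a group of 6, a value was marked where its gap to the nearest other exceeded Dixon's 95% critical share of the group's range. For normally distributed values chance marks about 1 in 20 groups. The rule was applied to rpm and not to log2 values, and the control values are skewed, so that rate does not apply here. Of 20 groups examined (9 members and their sum, in control and EWH) 5 were marked, all in control. Control 6 was marked for miR-200b-3p at 501 rpm (next 176 rpm), for miR-141-3p at 11.9 rpm (next 4.05 rpm), for miR-200b-5p at 5.60 rpm (next 2.02 rpm) and for the summed family at 643 rpm (next 242 rpm). Control 5 was marked for miR-200c-5p at 0.0413 rpm, which was 1 read where the other controls had none, a case that the rule always marks. The values come from the same libraries and are not independent.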

How the results depend on the processing

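The count of miRNAs called by limma (0 of 303, with 70 at an unadjusted p under 0.05) was 8 after quantile normalization and 1 without controls 5 and 6, and 0 to 24 with a library left out in turn (24 without EWH 2, 1 without EWH 4). It was 40 by edgeR (0 without controls 1, 4, 5 or 6 or EWH 3 or 4; 33 and 37 without controls 2 and 3; 46, 44, 30 and 31 without EWH 1, 2, 5 and 6) and 63 by DESeq2 on recovered reads (53 without controls 5 and 6, 23 without 4, 5 and 6). With the replicate number as a block, limma called 0 (57 at an unadjusted p under 0.05), with miR-200b-3p at -2.15 (limma adjusted p = 0.247). Libraries of the same number shared no common deviation (correlations -0.50 to 0.31, and no control correlated best with its own number), so the numbers were not taken as pairs. MiR-200b-3p and miR-200c-3p reversed without controls 4, 5 and 6, to 0.25 and 0.15 by limma, 0.33 and 0.37 by edgeR and 0.32 and 0.37 by DESeq2. No member was called in any of the limma settings, and miR-429 lay between -0.64 and -0.13 in all 40 alternatives. Of the neighbouring pairs in the order of levels, 3 of 4 passed, and 1 to 3 with a library left out. MiR-200c-3p minus miR-429 reversed to -0.04 without control 5, -0.10 without control 6, -0.30 without both and -0.40 without control 4 as well (-0.10 to 0.23 with a library left out). The cause of these shifts was not tested, and the family itself singled out controls 4, 5 and 6. With at most 8 reads in 9 libraries, miR-141-3p and the passenger strands are limited by depth there.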
